A study of Mus musculus with 6 samples.

Results

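Metallothioneins are small, cysteine-rich proteins that bind zinc and copper. The genes described here are Mt1, Mt2 and Mt3, taken by symbol, which makes 3 of the 32285 genes counted in single-nucleus RNA libraries of the mouse pons and medulla. All mice were male, wild type and of the strain C57BL6/J. The first group underwent chronic intermittent hypoxia (CIH) for 21 days, between postnatal days 22 and 43. Nitrogen entered the chamber for 60 s, until oxygen stood at 4.5 to 5%, and air then returned it to 21% within 5 min. This was repeated 80 times a day over 8 h. The normoxia group was kept in room air. Each group has 3 libraries of sorted nuclei from frozen brainstem. Nothing in the labels tells if a library pooled mice. The p-values therefore describe the variation among the libraries at hand, part of which may be technical.

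Mt1 and Mt2 are made in most tissues. Zinc raises their transcription through the metal-sensing factor Mtf1, and glucocorticoids, oxidative stress and low oxygen are known to raise it as well. In the brain, metallothioneins are known mainly from astrocytes, while Mt3 is the form enriched in the nervous system and responds less to metals. Mt4 is known from squamous epithelia.

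The genes lie head to tail on the forward strand of chromosome 8 (GENCODE M21 annotation, mm10). Mt4 spans 94137197 to 94139031, Mt3 94152607 to 94154146, Mt2 94172664 to 94173568 and Mt1 94179082 to 94180327. Each has 3 exons. The stretch from Mt3 to Mt1 covers 27721 bases. The longest run of bases shared by transcripts of any 2 members was 20, so their reads can mostly be told apart. The 250 bases before each RefSeq start (GRCm38.p6, forward strand) are shown because the members differ in how often the core bound by Mtf1 lies near that start. Capitals mark that core, TGCGCNC or TGCACNC, on either strand.
Mt1, chr8:94178839-94179088: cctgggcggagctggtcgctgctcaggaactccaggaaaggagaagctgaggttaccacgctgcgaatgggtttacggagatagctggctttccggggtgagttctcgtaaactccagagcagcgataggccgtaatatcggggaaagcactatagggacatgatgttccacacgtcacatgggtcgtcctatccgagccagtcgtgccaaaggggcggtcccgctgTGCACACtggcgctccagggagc
Mt2, chr8:94172368-94172617: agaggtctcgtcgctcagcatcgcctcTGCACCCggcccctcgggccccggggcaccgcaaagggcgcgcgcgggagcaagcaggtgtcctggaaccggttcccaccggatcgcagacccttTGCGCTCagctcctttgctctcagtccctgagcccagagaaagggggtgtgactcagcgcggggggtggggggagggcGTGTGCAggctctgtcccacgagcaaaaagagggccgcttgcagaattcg
Mt3, chr8:94152357-94152606: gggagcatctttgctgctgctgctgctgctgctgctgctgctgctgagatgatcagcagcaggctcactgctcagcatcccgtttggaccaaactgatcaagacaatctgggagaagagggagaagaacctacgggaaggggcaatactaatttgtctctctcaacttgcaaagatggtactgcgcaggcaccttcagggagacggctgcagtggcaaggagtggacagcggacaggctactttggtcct
In windows with 50 more bases after the RefSeq start, the core matched 3 times in Mt1, 4 times in Mt2 and 1 time in Mt3. Counted from the RefSeq start used, it also lies at 3 to 9 and 21 to 27 in Mt1, 5 to 11 in Mt2 and 28 to 34 in Mt3. Each gene was given 1 RefSeq start. Mt1 and Mt3 have 3 coding transcripts and Mt2 has 2, and windows at other starts were not examined. From a start further downstream, cores placed here after the start would lie before it, and further matches could enter the window. The positions, counts and absences given here hold for these windows only. Of 32851 RefSeq windows of these 300 bases, 25.7% held at least 1 match, 1.97% at least 3 and 0.517% at least 4. The hypoxia response core, ACGTG or GCGTG on either strand, matched 2 times in Mt1, 2 times in Mt2 and 0 times in Mt3, against at least 1 match in 43.8% of windows. In Mt2 the match at -52 to -48 overlaps the metal core at -50 to -44. The glucocorticoid receptor palindrome, GNACA and TGTNC with 3 bases between them, matched 1 time, in Mt1 at -94 to -82, and is found in 0.475% of windows. The antioxidant element TGACNNNGC matched 1 time, in the Mt2 window, against 12.4% of windows. Bases further downstream of the RefSeq starts were not searched, so its absence elsewhere in Mt1 or Mt3 is not shown. A match describes letters and is not a bound site or a cause.

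The 6 libraries held 43836 barcodes. Barcodes reaching 500 detected genes, with mitochondrial genes taking no more than 5% of UMIs (unique molecular identifiers, the molecules counted), were kept as nuclei, 40139 in all and 4350 to 10643 per library. Total UMIs were 26733243 to 46754345 per library. The third CIH library stood apart, with a median mitochondrial share of 0.366% against 0.0624% to 0.0955% in the others. Results are therefore given with and without it. The groups also differed, without overlap, in Hox genes, which mark position in the hindbrain. A Hox UMI was found in 13.5%, 14.5% and 16.4% of CIH nuclei and in 27.6%, 24.2% and 22.5% of normoxia nuclei. Granule neurons, gated as below, were 4.85%, 6.95% and 0.752% of CIH and 2.30%, 2.22% and 0.650% of normoxia nuclei. The part of the dissected region in the member values was not tested. The first CIH and second normoxia libraries shared 1163 barcodes, 26.7% and 17.6% of their nuclei, where other pairs shared 2 to 31. In 1159 of these the normoxia copy was the smaller, with a median of 1232 UMIs against 9858. Removing the smaller copies moved the CIH log2 fold change of the members by at most 0.04 in 26 sums. Marker genes, no metallothionein among them, placed 31122 nuclei in exactly 1 class, and 9 classes had at least 20 nuclei in every library. Astrocytes numbered 834, or 53 to 454 per library, and endothelial cells 679, or 34 to 377. The astrocyte markers together had a median of 95.7 to 105 UMIs per 10000 UMIs in astrocytes and 0 to 2.77 in oligodendrocytes.

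All 3 members were highest in astrocytes, the glia that surround synapses and vessels. Levels are in CPM, the UMIs of a gene scaled to 1000000 UMIs per class sum, and genes are not compared per length because the reads come from the 3′ end. Mt1 stood at 277, 353 and 397 in the astrocytes of the 3 normoxia libraries and at 378, 654 and 561 in those of the 3 CIH libraries. Endothelial cells came next, with 369.7, 177 and 187 in normoxia and 231, 253 and 255 in CIH. Astrocytes were above endothelial cells in 5 of 6 libraries, the exception being the first normoxia library, where the endothelial value rests on 35 UMIs. In normoxia Mt1 averaged 74.0 ± 13.5 (SD, n = 3) in microglia, the immune cells of the brain, and 51.5 ± 13.3 in oligodendrocytes, which form myelin. It averaged 41.5 ± 18.3 in oligodendrocyte precursors and 39.1 ± 17.0 in granule neurons. The lowest means were 25.2 ± 5.47 in other neurons, 20.3 ± 5.91 in excitatory and 19.9 ± 6.17 in inhibitory neurons. Down this order the normoxia ranges of neighbouring classes overlapped, except between endothelial cells and microglia.

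**Figure D1:**
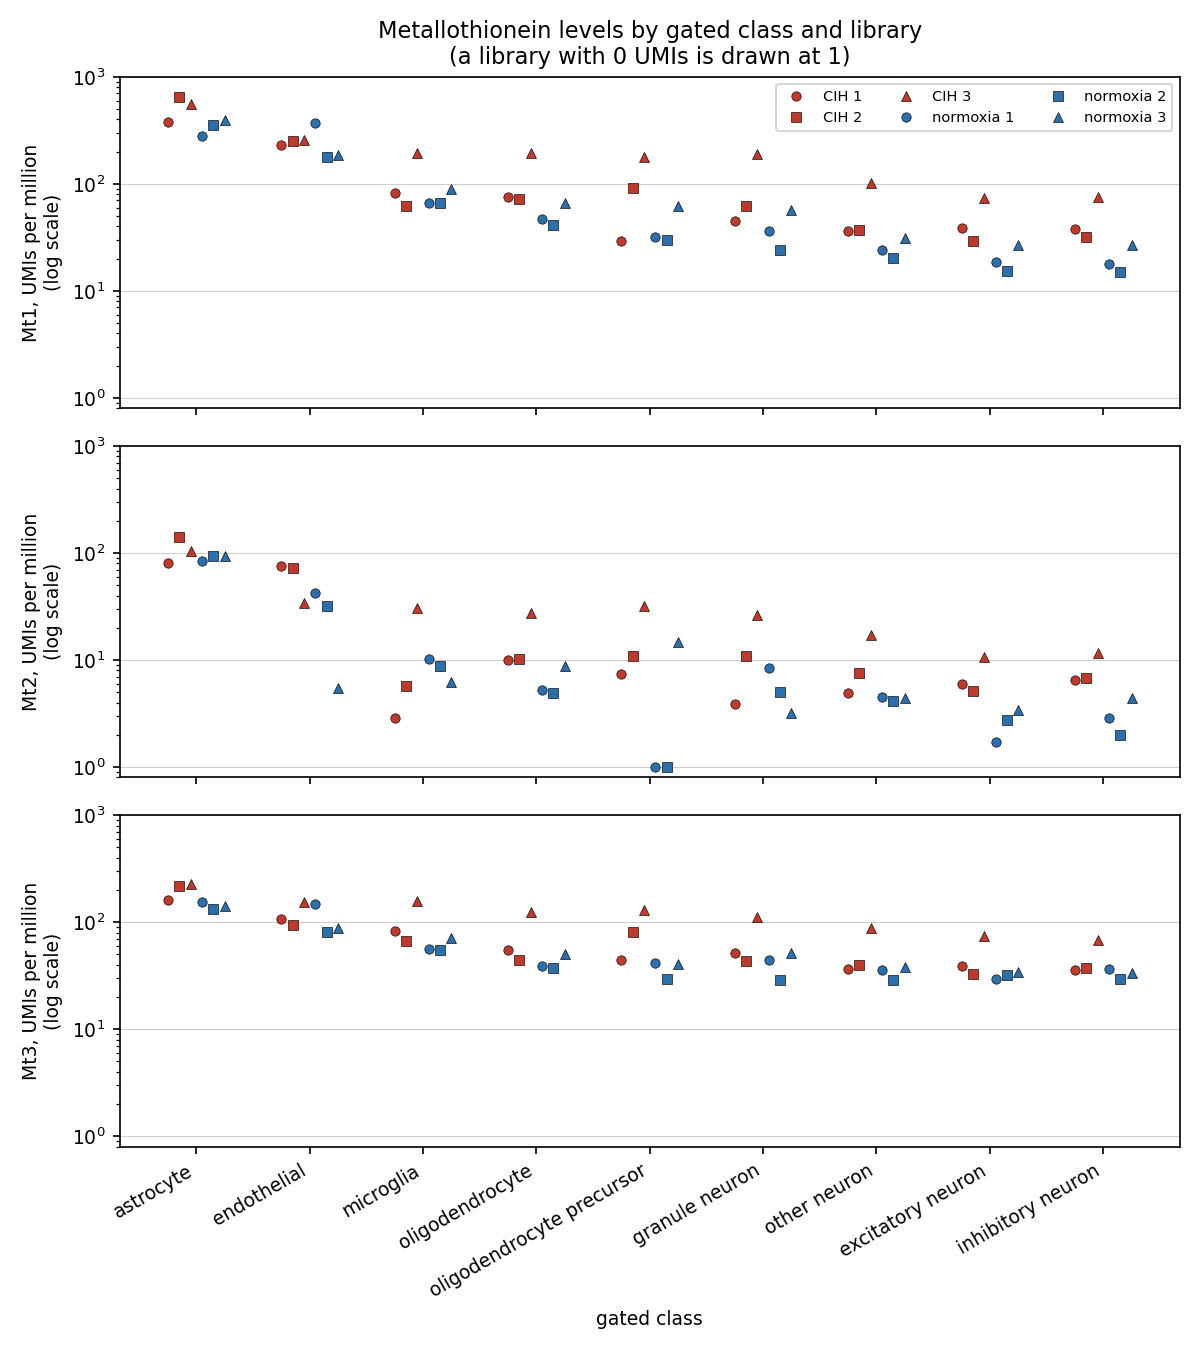
CPM of Mt1, Mt2 and Mt3 (log axes) in the 9 gated classes; each point is 1 library, red for CIH and blue for normoxia, with the shape giving the replicate. Levels are highest in astrocytes, and the third CIH library (red triangle) is the highest point for Mt1 in every class but astrocytes and endothelial cells, where it stands at 561 and 255.

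Mt2, the neighbour and close relative of Mt1, was lower throughout. It stood at 83.8, 93.2 and 94.2 in normoxia astrocytes and at 80.2, 143 and 104 in CIH astrocytes, the highest class in 6 of 6 libraries. Endothelial cells averaged 26.6 ± 19.0 in normoxia on 1 to 4 UMIs a library, microglia 8.37 ± 1.99, oligodendrocytes 6.33 ± 2.17 and excitatory neurons 2.64 ± 0.869. Only the step from astrocytes to endothelial cells had normoxia ranges that did not overlap. The first and second normoxia libraries had 0 Mt2 UMIs in precursors, which allows up to 3 UMIs in each.

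Mt3 was spread more evenly. It stood at 156, 133 and 141 in normoxia astrocytes and at 160.4, 219 and 228 in CIH astrocytes, again the highest class in 6 of 6 libraries. Normoxia means were 105 ± 37.1 in endothelial cells, 61.0 ± 8.58 in microglia, 42.0 ± 6.94 in oligodendrocytes, 33.1 ± 3.44 in inhibitory and 31.8 ± 2.43 in excitatory neurons. Normoxia ranges did not overlap between endothelial cells and microglia or between microglia and oligodendrocytes, and overlapped for the other neighbours in the order.

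Astrocytes were compared with each other class within libraries by edgeR's quasi-likelihood test over 12481 genes, and all 24 tests of the members passed an adjusted p of 0.05. The log2 difference ran from 1.34 to 3.72 for Mt1, from 1.79 to 4.26 for Mt2 and from 0.90 to 2.00 for Mt3. It was smallest against endothelial cells for each, with standard errors (SE) of 0.222, 0.348 and 0.171 and edgeR adjusted p of 9.69e-07, 2.05e-05 and 1.44e-05. A higher level in astrocytes is common: edgeR called 22.9% of genes higher there than in oligodendrocytes, 15.9% than in precursors, 22.3% than in microglia and 20.3% than in endothelial cells. For granule, excitatory, inhibitory and other neurons the shares were 23.5%, 27.1%, 27.2% and 26.1%. The 24 calls held with each library left out in turn.

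Most metallothionein UMIs nonetheless lay outside the gated astrocytes, which were 2.08% of kept nuclei. Astrocytes held 10.4% of the 14272 Mt1 UMIs, 13.9% of the 2253 Mt2 UMIs and 5.13% of the 11646 Mt3 UMIs. Oligodendrocytes, 31.9% of nuclei, held 28.4%, 24.2% and 24.3%. Nuclei that met no gate, 18.6% of nuclei, held 17.5%, 17.5% and 18.8%. Those that met more than 1 gate, 3.87% of nuclei, held 8.53%, 9.41% and 6.91%. Some of these may be astrocytes, and 301 nuclei fell 1 marker short of the astrocyte gate. Free RNA from broken cells adds UMIs to nuclei of every class, so Slc39a12, a zinc importer of astrocytes that served in no gate, was set beside the members. Slc39a12 stood at 499.6, 700.3 and 742 in normoxia astrocytes and 571, 621 and 989 in CIH astrocytes. In oligodendrocytes it stood at 1.71, 1.87 and 1.70 in normoxia and 2.31, 1.45 and 11.6 in CIH, low in 5 libraries and higher in the third CIH library. Other RNAs high in astrocytes stood higher there. The lipid carrier Apoe averaged 64.0 in normoxia oligodendrocytes against 1047 in astrocytes. The astrocyte gate markers summed to 213, 219.5 and 205 against 7919, 8912 and 8121. The level of free RNA can thus not be read from Slc39a12 alone. The part of free RNA in the member levels of the other classes was not tested.

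By nucleus, 55.8% to 83.0% of astrocytes held an Mt1 UMI, 20.2% to 32.1% an Mt2 UMI and 32.7% to 56.6% an Mt3 UMI, depending on the library. The most Mt1 UMIs in an astrocyte nucleus were 38, in the second CIH library. In normoxia inhibitory neurons the Mt1 share was 10.7% to 14.8% at a median depth of 5947 to 7302.5 UMIs, against 55.8% to 66.3% at 2420 to 3221 UMIs in normoxia astrocytes. The class with deeper nuclei thus had the lower share. In the 3 normoxia libraries Mt2 was found in 4.84% to 5.50% of oligodendrocyte nuclei with Mt1 and in 1.22% to 2.10% of those without. In the 3 CIH libraries it was found in 3.97%, 4.84% and 9.42% of those with Mt1 and in 3.74%, 3.75% and 5.63% of those without, so the shares were close in the first CIH library. In normoxia, nuclei with Mt1 were also deeper, with median UMIs of 2510 to 3372 against 2141 to 2814, and the part of depth was not tested.

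The genes whose level followed the members most closely over the 54 sums of 9 classes in 6 libraries were taken from 4131 genes averaging at least 50 CPM (4132 for Mt2). Mt2 averaged less and was not ranked for the others, though its r was 0.89 with Mt1 and 0.85 with Mt3. For Mt1 they were Mt3 (Pearson r = 0.96), the lipid carrier Apoe (0.92), the aldolase Aldoc (0.88), Znrf3 (0.86) and Mxd4 (0.82). For Mt2 they were Mt1 (0.89), Mt3 (0.85), Aldoc (0.84), Cep85l (0.78) and Apoe (0.77). For Mt3 they were Mt1 (0.96), Apoe (0.90), Aldoc (0.90), the creatine kinase Ckb (0.84) and Atp5f1 (0.81). Sums of 1 library share its depth and free RNA, and these values are descriptions.

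Whether CIH changed the members was asked first over all nuclei. Mt1 stood at 58.8, 62.8 and 165 in CIH and at 36.1, 32.2 and 45.2 in normoxia. All CIH libraries were above all normoxia libraries, and the third CIH library was far above the other two. The log2 difference was 1.33 (SE 0.409) and did not pass, with an edgeR adjusted p of 0.39. Mt2 stood at 9.23, 10.7 and 26.4 in CIH and at 5.53, 5.26 and 6.32 in normoxia, again without overlap. Its log2 difference was 1.44 (SE 0.401), with an edgeR adjusted p of 0.377. Mt3 stood at 49.4, 45.6 and 116 in CIH and at 38.4, 34.7 and 43.0 in normoxia, without overlap, though the second CIH library was close to the third normoxia library. Its log2 difference was 0.86 (SE 0.357), with an edgeR adjusted p of 0.445. All CIH libraries were above all normoxia libraries in 9.86% of the 19790 genes tested, and edgeR called 0.0101% of them.

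Without the third CIH library the log2 differences over all nuclei were 0.66 (SE 0.140) for Mt1, 0.78 (SE 0.130) for Mt2 and 0.27 (SE 0.104) for Mt3. Mt2 then passed, with an edgeR adjusted p of 0.0286, among 2.62% of genes. Mt1 had 0.0647 and Mt3 0.264. With all 6 libraries DESeq2 called Mt1 and Mt2 (adjusted p 0.0352 and 0.0189), among 1.14% of genes. In a sum over all nuclei, fewer cells of a type and less RNA per cell cannot be told apart. Astrocytes were 4.27% of nuclei in the third CIH library, where the other libraries had 1.11% to 1.55%. Endothelial cells were 3.54% against 0.514% to 1.72%.

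Within astrocytes no member passed. The Mt1 groups overlapped, since the first CIH library (378) was below the third normoxia library (397). The Mt3 groups did not, with 160.4 as the lowest CIH and 156 as the highest normoxia value, as in 4.56% of genes. The log2 differences were 0.64 for Mt1 (SE 0.227), 0.26 for Mt2 (SE 0.243) and 0.52 for Mt3 (SE 0.204), each with an edgeR adjusted p of 0.999 or above, and 0.0% of genes were called. Without the third CIH library they were 0.58, 0.29 and 0.39. These sums rest on 96 to 825 UMIs of Mt1, 24 to 153 of Mt2 and 47 to 335 of Mt3 per library.

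In oligodendrocytes Mt1 stood at 75.9, 72.9 and 196 in CIH and at 46.9, 41.1 and 66.4 in normoxia. Mt2 stood at 10.1, 10.2 and 27.8 in CIH and at 5.25, 4.92 and 8.83 in normoxia. Neither overlapped, as in 7.43% of genes, and the third CIH library was again the highest. Mt3, at 54.5, 44.3 and 125 and 38.9, 37.1 and 49.9, overlapped. The log2 differences were 1.20 (SE 0.398), 1.40 (SE 0.449) and 0.87 (SE 0.370), with edgeR adjusted p of 0.256, 0.239 and 0.385 and 0.0% of genes called. Without the third CIH library they were 0.54, 0.67 and 0.24. DESeq2 on all 6 libraries called Mt2 (adjusted p 0.0475), among 2.12% of genes. The astrocyte gate markers in these oligodendrocytes summed to 260.4, 238 and 446 in CIH and 213, 219.5 and 205 in normoxia, with 9 of 9 above 0 and a median log2 difference of 1.05 (0.05 without the third CIH library), and their part in the member values was not tested.

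Neurons showed log2 differences of similar size for Mt1 and Mt2. In inhibitory neurons Mt1 stood at 37.7, 31.9 and 74.6 in CIH and at 17.9, 14.9 and 26.8 in normoxia. In excitatory neurons it stood at 38.9, 29.2 and 74.0 and 18.4, 15.5 and 26.9, and in other neurons at 36.4, 36.8 and 103 and 24.2, 20.3 and 31.1. All CIH libraries were above all normoxia libraries in the 3 groups, which was the case for 6.84% of genes in inhibitory, 8.69% in excitatory and 8.19% in other neurons. Mt2 stood at 6.49, 6.84 and 11.5 against 2.90, 2.00 and 4.43 in inhibitory neurons, on 13 to 70 UMIs a library. It stood at 5.96, 5.10 and 10.6 against 1.72, 2.76 and 3.44 in excitatory and at 4.90, 7.64 and 17.1 against 4.47, 4.15 and 4.46 in other neurons, likewise without overlap. The Mt3 groups overlapped in all 3.

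The log2 differences of Mt1 were 1.29 in inhibitory (SE 0.313), 1.22 in excitatory (SE 0.325) and 1.22 in other neurons (SE 0.385), with edgeR adjusted p of 0.492, 0.243 and 0.281. Those of Mt2 were 1.41 (SE 0.346), 1.43 (SE 0.369) and 1.18 (SE 0.419), with adjusted p of 0.492, 0.235 and 0.351. Of all genes, edgeR called 0.0% in inhibitory, 0.00687% in excitatory and 0.026% in other neurons. Without the third CIH library the Mt1 differences were 0.75, 0.70 and 0.50, those of Mt2 1.02, 0.99 and 0.49, and those of Mt3 0.12, 0.14 and 0.12. The call depends on the fit: without a filter on low counts Mt1 passed in all 3 neuron groups (edgeR adjusted p 1.70e-08, 1.38e-05 and 0.0184), where 0.752%, 1.28% and 0.908% of genes did. With the replicate number as a block, Mt1 passed in inhibitory and excitatory neurons (edgeR adjusted p 0.0404 and 0.0142), among 0.0202% and 0.536% of genes.

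Markers that define astrocytes moved in the same direction in these neurons. The astrocyte gate markers summed to 172, 150.2 and 247 in CIH and 125, 122 and 125 in normoxia inhibitory neurons, to 265, 283 and 275 and 196, 198 and 132 in excitatory and to 309, 347 and 347 and 205, 207 and 164 in other neurons, without overlap in any of the 3. Those measured were above 0 in 6 of 6, 5 of 5 and 8 of 8, with median log2 differences of 0.86, 1.01 and 1.16 (0.30, 0.55 and 0.41 without the third CIH library). The oligodendrocyte gate markers were also higher in other neurons, at 1158, 920 and 999 against 867, 816 and 677. Their median log2 differences were 0.11, 0.36 and 0.33 (-0.48, -0.10 and 0.32), with overlapping sums in inhibitory and excitatory neurons. The part of either marker list in the member values was not tested.

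The remaining classes gave few UMIs, and no member passed in edgeR with all 6 libraries, the filter on low counts and no block. Endothelial Mt1 had a log2 difference of -0.05 (SE 0.308), its CIH values lying inside the normoxia range. Microglia gave 0.58 for Mt1 (SE 0.376) and 0.73 for Mt3 (SE 0.314), with overlap, and -0.11 and 0.23 without the third CIH library. Granule neurons gave 1.30 for Mt1 (SE 0.557) and 0.67 for Mt3 (SE 0.393), and 0.64 and 0.28 without that library. The astrocyte gate markers in granule neurons summed to 943, 882 and 907 in CIH and 598, 560.4 and 502 in normoxia, without overlap, and their part was not tested. Granule Mt1 passed without a filter on low counts and with the replicate block (edgeR adjusted p 1.82e-04 and 0.0191), where 2.56% and 4.07% of genes did. In precursors Mt3 stood at 44.2, 81.4 and 131 in CIH and at 41.4, 29.6 and 40.5 in normoxia, without overlap, as in 3.93% of genes. The log2 difference there was 1.30 for Mt3 (SE 0.415) and 1.36 for Mt1 (SE 0.541), and without the first CIH library both passed (edgeR adjusted p 0.044 and 0.0317, among 0.454% of genes). The differences were 0.68 for Mt3 and 0.40 for Mt1 without the third CIH library. Called genes were 0.0% in precursors, 0.0% in microglia, 0.0291% in endothelial cells and 0.335% in granule neurons. Mt2 was too low to be fitted with 6 libraries in these 4 classes.

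Across the classes fitted, Mt1 was above 0 in 8 of 9 (median log2 difference 1.22), Mt2 in 5 of 5 (1.40) and Mt3 in 9 of 9 (0.67). Other genes described below were so too: Fkbp5 in 6 of 6, Sgk1 in 8 of 9 and Tsc22d3 in 7 of 7. Apoe was above 0 in 7 of 9, Cst3 in 5 of 9 and Clu in 5 of 8. How often genes at large were above 0 in as many classes was not computed. All classes share 1 set of libraries, so the fits are not independent. Without the third CIH library the medians were 0.54 for Mt1 and 0.23 for Mt3. Mt2 could then also be fitted in endothelial cells, at 1.70 on few normoxia UMIs. Its median of 0.83 over these 6 classes is therefore not comparable with 1.40. In astrocytes, oligodendrocytes and excitatory, inhibitory and other neurons the Mt2 fold was 1.20, 2.65, 2.69, 2.66 and 2.27 with 6 libraries. Without the third CIH library it was 1.22, 1.60, 1.99, 2.03 and 1.40. Whether the CIH difference was smaller in astrocytes was tested with limma, as the astrocyte difference minus that of another class. For Mt2 it was -0.97 against oligodendrocytes (SE 0.451), -1.14 against excitatory (SE 0.388) and -1.16 against inhibitory neurons (SE 0.374). None of the 9 such tests of members passed, and the limma adjusted p for these 3 were 0.709, 0.937 and 0.983. Mt1 gave -0.42, -0.54 and -0.60, and Mt3 -0.21, -0.05 and 0.03.

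A ratio of 2 members within a library does not depend on how the library is scaled. Over all nuclei the ratio of Mt1 to Mt3 UMIs was 1.19, 1.38 and 1.42 in CIH and 0.939, 0.927 and 1.05 in normoxia. In inhibitory neurons it was 1.06, 0.848 and 1.10 against 0.495, 0.508 and 0.799, and in excitatory neurons 0.987, 0.894 and 0.995 against 0.632, 0.477 and 0.792. The groups did not overlap in these sums, and here the third CIH library lay close to the other CIH libraries. They did not overlap in oligodendrocytes either (1.39, 1.64 and 1.57 against 1.21, 1.11 and 1.33), nor in other neurons (1.01, 0.933 and 1.16 against 0.681, 0.698 and 0.821). In astrocytes they overlapped, at 2.35, 2.98 and 2.46 against 1.78, 2.66 and 2.81. The ratio of Mt1 to Mt2 over all nuclei overlapped, at 6.37, 5.85 and 6.25 against 6.52, 6.12 and 7.15. In astrocytes it did not, at 4.71, 4.58 and 5.39 against 3.31, 3.79 and 4.22, and it separated in no other class. The ratio of Mt2 to Mt3 over all nuclei did not overlap, at 0.187, 0.235 and 0.228 against 0.144, 0.151 and 0.147. It also separated in oligodendrocytes and excitatory and inhibitory neurons, and overlapped in astrocytes and the other classes. Astrocytes had the highest ratio of Mt1 to Mt3 of the classes named here. The astrocyte gate markers were higher in every CIH than in every normoxia library over all nuclei. The same held in the oligodendrocyte and neuron sums where the ratio of Mt1 to Mt3 separated the groups. Their part in the ratios was not tested. The ratios shared libraries across classes and were given no test. How often ratios of other genes separate the groups was not computed.

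**Figure D2:**
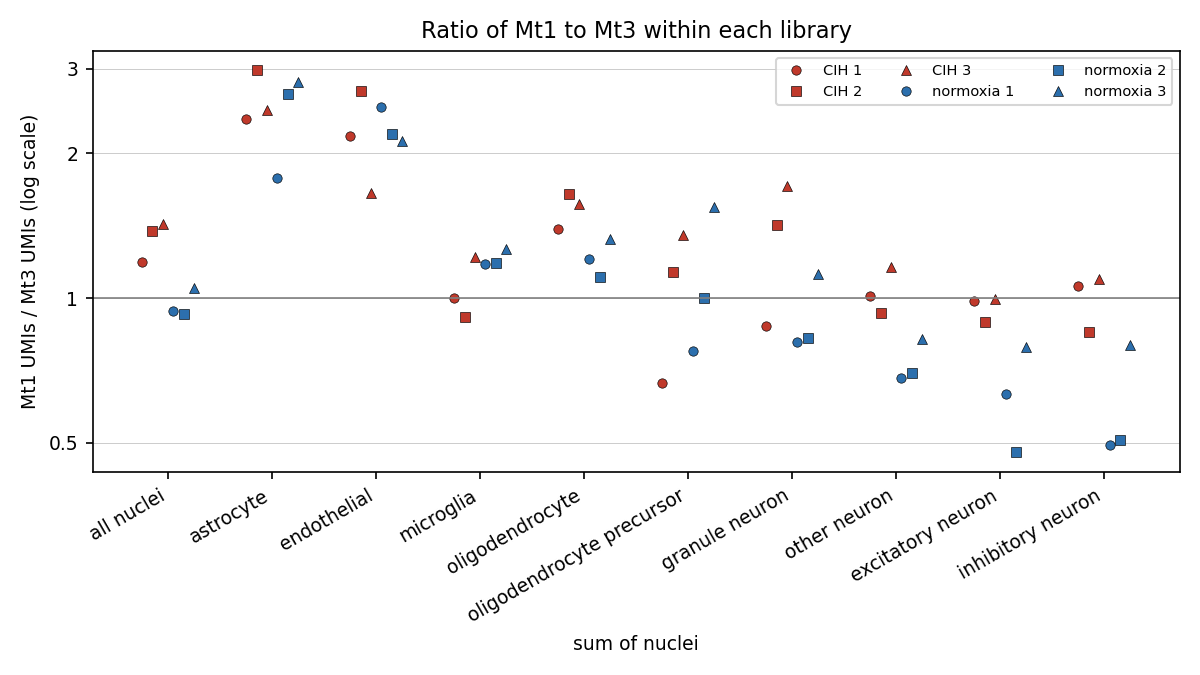
Ratio of Mt1 to Mt3 UMIs (log axis) in all nuclei and the 9 classes; each point is 1 library, red for CIH and blue for normoxia. All red points lie above all blue points in all nuclei, oligodendrocytes and excitatory, inhibitory and other neurons, and the colours overlap in the other classes.

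The share of nuclei with a UMI was compared after thinning each nucleus to 1000 UMIs, by an exact two-sided permutation test over the 20 ways to assign the libraries, which cannot give a p below 0.1. In astrocytes the thinned Mt1 share was 39.6%, 43.9% and 40.1% in CIH and 26.4%, 34.6% and 34.3% in normoxia. The groups did not overlap, differing by 9.48 percentage points (exact p = 0.1, the smallest possible). Without thinning the shares were 77.3% ± 5.26 and 61.7% ± 5.37 (SD, n = 3). The thinned Mt3 share of astrocytes was 21.9% ± 0.721 in CIH and 15.9% ± 1.89 in normoxia, also without overlap, while Mt2 overlapped at 9.45% ± 2.66 and 9.94% ± 2.61. In oligodendrocytes the Mt1 share was 12.4% ± 5.56 and 5.84% ± 0.973 without overlap, a difference of 6.53 points (exact p = 0.1) that was 3.34 without the third CIH library. In inhibitory neurons it was 5.70% ± 3.46 and 2.27% ± 0.664 with overlap, a difference of 3.43 points, and 1.88 without that library. How often other genes separate the groups in thinned shares was not computed.

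Metal handling genes, the zinc and copper transporters and their partners, were described from a list of 37. Over all nuclei 34 were measured and none passed in either direction in edgeR with all 6 libraries, with a median log2 difference of 0.07 against 0.01 over all genes. Those of smallest p were the metalloreductase Steap2 at -0.41 (SE 0.0794), Slc30a3, which loads zinc into synaptic vesicles, at -0.63 (SE 0.127), Slc30a10 at 0.39 and the zinc exporter Slc30a8 at -0.99. Without the third CIH library, Steap2 and Slc30a3 passed as lower (edgeR adjusted p 0.039 and 0.0437), among 2.62% of genes called. DESeq2 called the same 2 genes lower with all 6 libraries, among 1.14% of genes called. Mtf1 stood at 37.1, 37.6 and 39.6 in CIH and at 37.7, 36.8 and 32.5 in normoxia, with overlap and a log2 difference of 0.09 (SE 0.0827). Slc30a1, the zinc exporter that Mtf1 also drives, stood at 4.60, 5.42 and 5.98 in CIH and at 4.00, 4.20 and 4.21 in normoxia. Its groups did not overlap, and its log2 difference of 0.36 (SE 0.146) did not pass (edgeR adjusted p 0.443).

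By class these genes were not ordered like the metallothioneins. Mtf1 was highest in oligodendrocytes, at 61.0, 56.9 and 52.5 in normoxia against 20.2, 31.1 and 14.7 in astrocytes, and Slc30a1 was highest in endothelial cells, at 141 ± 82.3 against 17.2 ± 7.36. Of 15 list genes measured in astrocytes none passed (median -0.05, all genes 0.00). Those of smallest p were the zinc exporter Slc30a6 at -0.76, the copper-zinc superoxide dismutase Sod1 at 0.76, the importer Slc39a13 at -0.54 and the copper pump Atp7a at 0.43. Of 32 in oligodendrocytes none passed (median 0.11, all genes 0.01). There the leading genes were Slc30a3 at -0.93, the copper pump Atp7b at -1.09, Slc39a9 at 0.28 and Slc39a12 at 1.69, the last falling to 0.09 without the third CIH library.

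Other RNAs were high in the third CIH library as well. Over all nuclei the 13 mitochondrially encoded RNAs summed to 993, 1182 and 3313 CPM in CIH and to 893, 772 and 1038 in normoxia, with a median log2 difference of 0.89 (0.28 without that library). The median was 0.47 (0.01) over 81 ribosomal protein genes and 0.33 (-0.01) over 12 abundant short astrocyte RNAs. Apoe stood at 53.5, 64.8 and 236 in CIH and at 57.2, 55.3 and 64.0 in normoxia, so its first CIH library lay below the normoxia range, where for Mt1 it lay above. Cst3, a protease inhibitor, stood at 128, 145 and 294 and 151, 155 and 223, and the secreted chaperone Clu at 25.0, 22.9 and 46.95 and 24.7, 24.5 and 26.9, both with overlap. The endothelial gate markers summed to 128, 106 and 350.2 in CIH and 69.0, 57.9 and 84.9 in normoxia, and the astrocyte gate markers to 412, 423 and 921 and 316, 318 and 249.7, neither with overlap. The part of cell composition, free RNA and RNA quality in the member values was not tested.

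Summed over all nuclei, glucocorticoid-responsive genes were higher in each CIH library than in any normoxia library. There the 14 genes summed to 497, 505 and 916 in CIH and to 403, 408 and 419 in normoxia. None passed in edgeR with all 6 libraries, 14 were above 0, and the median log2 difference was 0.73 (0.27 without the third CIH library). Without that library 1 gene passed over all nuclei and 1 in oligodendrocytes, in both the kinase Sgk1 (edgeR adjusted p 0.0208 and 0.0388, log2 difference 0.40 and 0.74). Of all genes tested, 517 of 19751 and 199 of 15155 passed there. In astrocytes the sums overlapped, at 705, 607 and 1036 in CIH and 549, 627 and 680.0 in normoxia. In oligodendrocytes Fkbp5, which restrains the glucocorticoid receptor, stood at 54.3, 60.5 and 189 in CIH and at 20.3, 21.5 and 39.5 in normoxia. Sgk1 stood there at 163, 162 and 292 and 91.4, 82.8 and 119.8, and Tsc22d3 at 160.2, 167 and 236 and 118, 119.5 and 149.5. None of the 3 overlapped in oligodendrocytes. In astrocytes Tsc22d3 stood at 164, 106 and 174 and 83.8, 79.1 and 97.1, without overlap, and Sgk1 at 30.1, 46.5 and 36.7 and 46.2, 31.1 and 35.3, with overlap. The part of glucocorticoids in the member values was not tested.

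**Figure D3:**
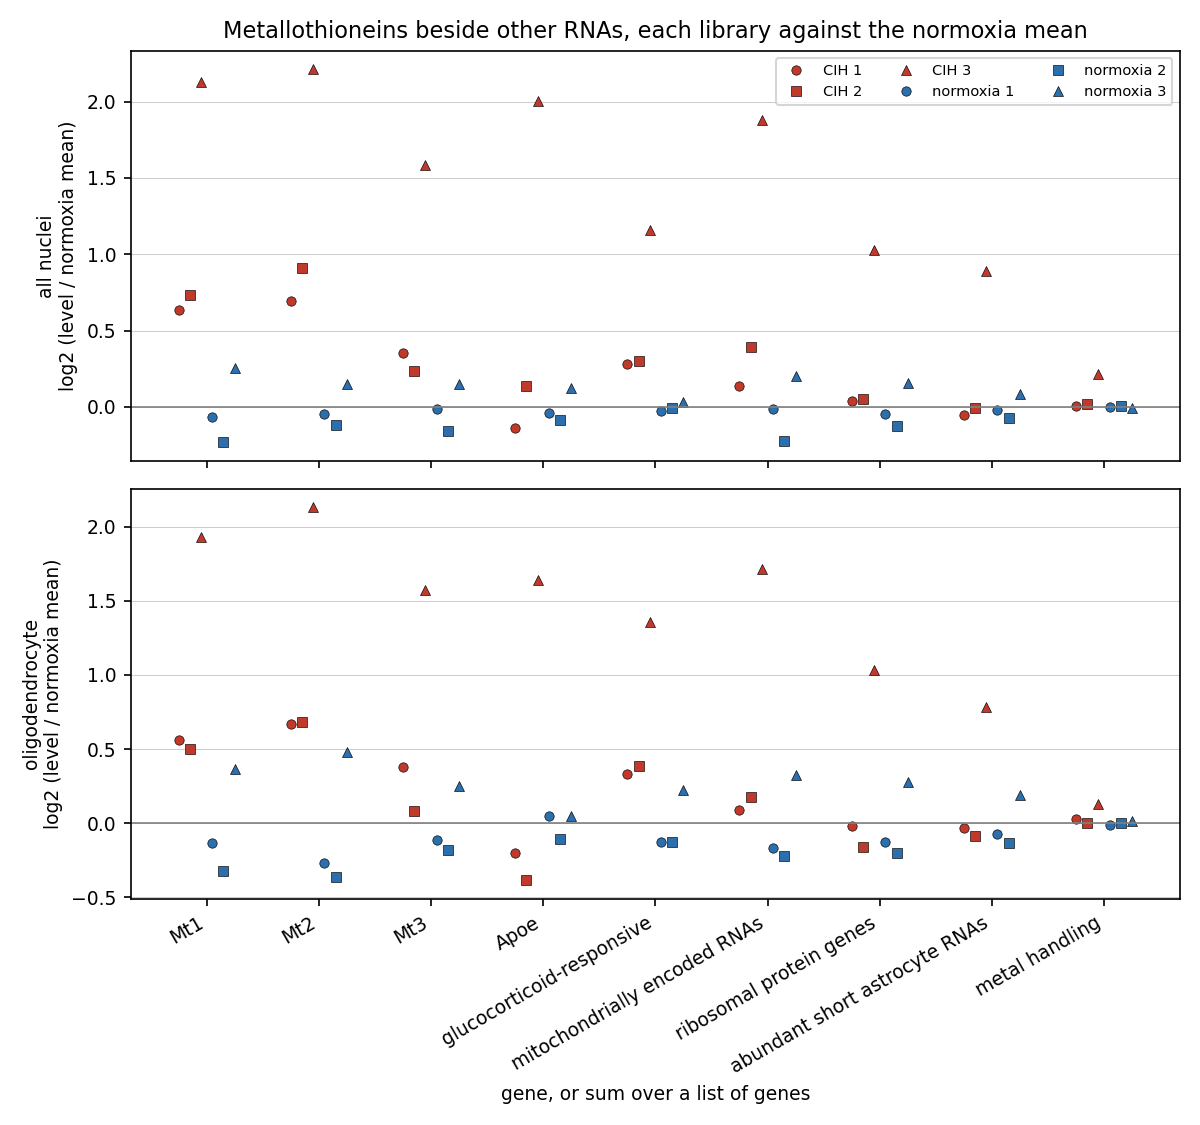
Log2 ratio of each library's level to the normoxia mean for the 3 members, Apoe and 5 summed gene lists, over all nuclei (top) and oligodendrocytes (bottom); red points are CIH and blue points normoxia libraries. The third CIH library (red triangle) is the highest point in every column, and in both panels the other CIH libraries also lie above all normoxia libraries for Mt1, Mt2 and the glucocorticoid-responsive genes.

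Genes beside the cluster showed no common shift. Of the 3 protein-coding neighbours on each side, Nudt21 (0.13), Ogfod1 (-0.05), Bbs2 (-0.04), Slc12a3 (-0.23) and Herpud1 (0.09) had log2 differences over all nuclei with overlapping groups. Nup93, a nuclear pore subunit and the first gene after Mt1, stood at 70.0, 66.6 and 62.6 in CIH and at 85.0, 87.9 and 83.9 in normoxia. All its CIH libraries were lower, and its log2 difference of -0.38 (SE 0.0652) did not pass (edgeR adjusted p 0.259). The share of all genes with every CIH library lower is not given here, so this separation is not read as particular to Nup93. Mt4 had 2 UMIs in all libraries together and could not be compared at this depth. The antisense gene Gm45774, which overlaps Mt2, averaged 0.0864 CPM in CIH and 0.0183 in normoxia, which is too few UMIs to compare.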

How the data were processed

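Single nuclei from the pons and medulla of 3 CIH and 3 normoxia libraries were analysed. Per the file headers the deposited matrices are raw UMI counts from Cell Ranger 6.1.2, while the submitters' processing notes name Cell Ranger 3.1.0, Seurat 4.0 and mm10. No normalization of the counts by the authors was used. Barcodes were kept from 500 genes upward and up to 5% mitochondrial UMIs, with no doublet removal other than leaving out nuclei that met more than 1 gate. Nuclei were placed by marker gates, whose thresholds were set after the data were seen, and raw counts were summed per library and class. CIH was compared with normoxia by edgeR 4.0.16 (quasi-likelihood, TMM, genes kept by filterByExpr, Benjamini-Hochberg over all genes tested), with DESeq2 1.42.0 as an alternative. Astrocytes were compared with other classes with the library as a factor, and differences of effects with limma 3.58.1. Standard errors were taken from the fold change and its F statistic. Shares, ratios and gates were computed in Python 3.11.15 with scanpy 1.11.5 and scipy 1.17.1. The tests were tested on simulated data. The members and gene lists were chosen with earlier results of these data known. Named genes were the members and Mt4, the metal handling genes past the threshold or otherwise the 4 of smallest p per sum, Mtf1, Slc30a1, fixed glucocorticoid and astrocyte RNAs, the 5 genes most like each member and the locus neighbours. Alternatives were other scaling, no filter, stricter filters and gates, Scrublet scores, a replicate block and leaving out each library.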

Additional observations from a re-analysis of the deposited data

How the results depend on the processing

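The 24 differences between astrocytes and other classes kept their direction and call under every alternative run. Of the 156 CIH values with a library left out, 149 kept direction and call, and of 226 under other settings 210 did. DESeq2 called Mt2 (1.44, adjusted p 0.0189) and Mt1 (1.34, 0.0352) over all nuclei and Mt2 in oligodendrocytes (1.39, 0.0475), where it called 1.14% and 2.12% of genes, and it called 2 metal handling genes over all nuclei. Without a filter on low counts edgeR called Mt1 in granule (1.34), excitatory (1.22), inhibitory (1.29) and other neurons (1.22), Mt2 in excitatory (1.43) and inhibitory neurons (1.41), and Mt3 in the same classes (0.62 and 0.54), and turned endothelial Mt1 to 0.11. The replicate block called Mt1 in granule (1.22), excitatory (1.17) and inhibitory neurons (1.24) and turned endothelial Mt1 to 6.57e-05. Same-numbered libraries correlated at -0.13 to 0.34 across genes, with every pair over 0.1 in 1 of 10 sums. The numbers were therefore not taken as pairs. The third libraries of both groups correlated at 0.20 over all nuclei, 0.34 in oligodendrocytes and 0.20 in inhibitory neurons, but -0.04 in astrocytes. Over all nuclei the third CIH library stood at -0.05 and -0.23 with the first and second normoxia libraries. Whether the third libraries share a factor was not tested. The cause of the changes with setting was not tested.

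With 1 library left out, log2 differences ranged over 0.78 to 1.70 for Mt2 in all nuclei, 0.40 to 1.83 and 0.68 to 1.61 for Mt1 and Mt3 in precursors, -0.11 to 0.90 for Mt1 in microglia, and -0.21 to 0.38 and -0.069 to 0.48 for Mt1 and Mt3 in endothelial cells. The astrocyte excess of the Mt3 effect ranged over -0.58 to 0.14 against oligodendrocytes, -0.35 to 0.20 against excitatory and -0.16 to 0.23 against inhibitory neurons. Thinned share differences (percentage points) ranged over -1.99 to 0.84 for Mt2 in astrocytes, -0.89 to 6.49 for Mt1 in precursors, -1.05 to 1.41 and -0.065 to 5.50 for Mt2 and Mt3 in microglia, -12.23 to 1.73 and -5.24 to 0.81 for Mt1 and Mt3 in endothelial cells, -1.999 to 5.034 for Mt1 in granule and -1.02 to 2.38 for Mt3 in inhibitory neurons. Unthinned, Mt2 in astrocytes was 6.93 and Mt1 in endothelial cells 4.91. Metal handling genes called over all nuclei ranged over 0 to 2. Over all settings, edgeR and DESeq2 called 0 to 517 genes over all nuclei (2 as reported), 0 to 319 in oligodendrocytes (0) and 0 to 20 in astrocytes (0). Endothelial cells under the stricter filter and granule neurons under the stricter gate were not run, having under 20 nuclei in a library.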
